A study of Mus musculus with 6 samples.

Results

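The paternally methylated imprinting control regions of H19, Meg3 and Rasgrf1 were described as they appear in peak lists of methylated DNA from mouse blood-forming cells. A peak was counted as a member when it shared at least 1 bp with 1 of 3 windows of mm9 (mouse genome build). The window for the H19 upstream control region was chromosome 7 from 149.75 to 149.79 Mb. That for the Meg3 intergenic region and gene was chromosome 12 from 110.75 to 110.83 Mb. That for the Rasgrf1 upstream region was chromosome 9 from 89.76 to 89.79 Mb. No mm9 annotation was used, so the windows can also hold other sequence, and no peak was assigned to a control region. The members numbered 43 of the 164274 peaks in all lists. There were 23 members among 85797 peaks of stem cells, 14 among 50638 peaks of common myeloid progenitors, and 6 among 27839 peaks of erythroblasts.

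The series asks how methylation differs between stages of differentiation from blood stem cells. DNA fragments carrying methylated CpG sites were captured with MBD2, a protein that binds methylated CpG, and were sequenced. Every library is labelled as coming from female mice of the inbred C57BL/6 strain, and the labels' protocols give adult bone marrow for the first 2 of the cell types below. The stem cell gate (HSC) took lineage-negative cells with Sca-1 and c-kit and can also hold early progenitors. The gate for common myeloid progenitors (CMP) took lineage-negative cells with c-kit and without Sca-1 and, so described, can also hold other progenitors. Erythroblasts (ERY) are nucleated precursors of red cells, and their collection is not described in the labels. Each cell type had 1 MBD2-enriched library, and the 3 supernatant libraries were not analysed here. The labelled cell types could not be checked against marker genes, since the lists hold no expression. Replicate libraries were not at hand, so no test between stages was run and no difference was checked against replicate spread. Read depth is unknown, so a window without a peak is not shown to be free of methylation.

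Imprinted genes are expressed from the copy inherited from 1 parent only. Most imprinting control regions receive their methylation in the egg, and these 3 are among the few that receive it in sperm and keep it on the paternal copy in body cells. At the H19 and Igf2 locus, the unmethylated maternal control region binds the insulator protein CTCF, which separates the growth factor gene Igf2 from its enhancers, while the paternal copy expresses Igf2 and silences the noncoding RNA H19. Between Dlk1, which encodes a Notch-related membrane protein, and Meg3, a noncoding RNA made from the maternal copy, an intergenic region carries the paternal mark. Upstream of Rasgrf1, which encodes an exchange factor that activates Ras, a methylated region next to tandem repeats goes with expression of the paternal copy. The H19 and Meg3 loci are both known for roles in keeping mouse blood stem cells quiescent. In an inbred strain the parental copies have the same sequence, and peak lists do not separate them, so the parental origin of the methylation could not be checked.

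The Meg3 promoter is shown because the Meg3 window holds the gene itself and because MBD2 binds only through CpG sites. The sequence is from RefSeq on GRCm38.p6, a different build from that of the peaks, at chr12:109540746-109541045 on the plus strand, written 5′ to 3′ with each CpG in capitals.
Meg3: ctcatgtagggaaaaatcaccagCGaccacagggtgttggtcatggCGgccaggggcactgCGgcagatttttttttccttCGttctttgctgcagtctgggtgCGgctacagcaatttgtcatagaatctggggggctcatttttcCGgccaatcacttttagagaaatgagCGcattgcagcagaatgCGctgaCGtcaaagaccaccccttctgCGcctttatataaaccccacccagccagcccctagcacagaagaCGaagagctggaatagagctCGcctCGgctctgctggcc
It spans 250 bases before to 50 bases after the start of transcription and holds 13 CpG sites, against a median of 7 in the 32851 promoter windows of that table. As many or more were found in 37.9% of the windows. It also holds TGACGTCA, the cAMP response element, whose centre is a CpG. That motif reads the same on both strands, begins 57 bases before the start, and occurs in 1.79% of all promoter windows. A second Meg3 start in the table had 1 CpG in its 300 bases, and the promoter of Rasgrf1, the other of the 3 genes with an entry, had 26. The positions of these promoters were not carried over to mm9, so none was assigned to a peak.

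All 3 windows held at least 1 peak in every cell type, and the number of peaks was lower at each later stage in the windows of H19 and Meg3. The H19 window held 6 HSC peaks, 4 CMP peaks and 1 ERY peak. The Meg3 window held 16 HSC peaks, 9 CMP peaks and 4 ERY peaks. The Rasgrf1 window held 1 peak at each stage. The whole lists also shorten, with 27839 ERY peaks against 85797 HSC peaks. ERY peaks overlapped 1 of 6 HSC peaks in the H19 window (95% exact binomial interval 0.421 to 64.1%), 5 of 16 in the Meg3 window (11 to 58.7%) and 1 of 1 in the Rasgrf1 window (2.50 to 100%). All 3 intervals include the 30.9% of the whole HSC list, but the interval from 1 Rasgrf1 peak would include almost any value. The windows were not tested against each other.

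**Figure D1:**
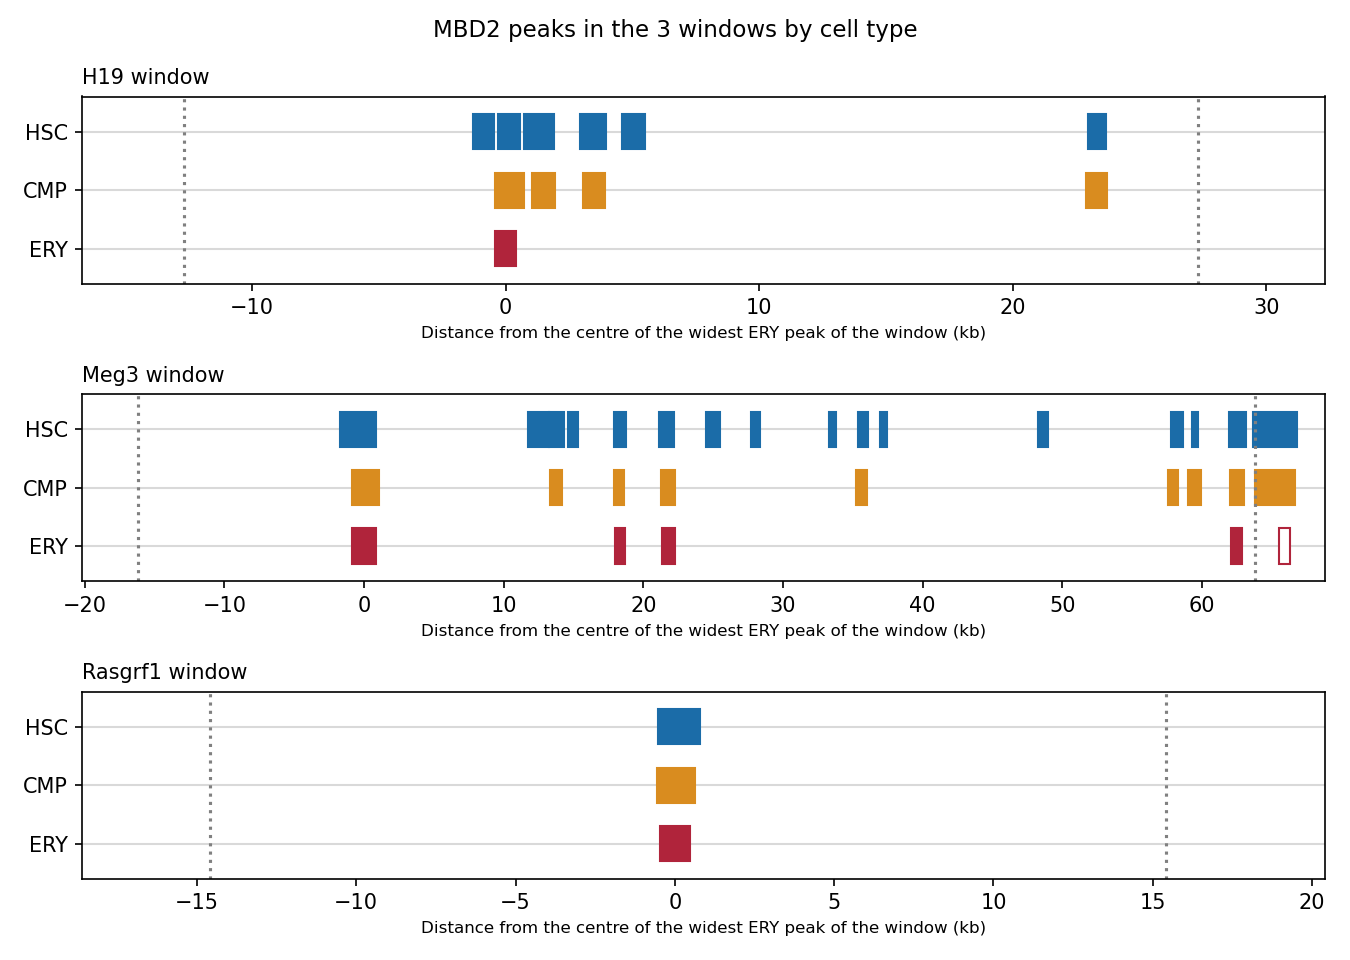
Each filled bar is an MBD2 peak drawn to scale against its distance (kb) from the centre of the widest ERY peak of its window, with HSC, CMP and ERY on separate rows and the window edges dotted. The open bar at the right of the Meg3 panel is an ERY peak that lies outside the window; the 6 HSC and 4 CMP peaks of the H19 window face 1 ERY peak, and the Rasgrf1 peak stands alone in all 3 rows.

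In the H19 window, the gene order on GRCm38 places Igf2 on the side of the higher coordinates, which is also the upstream side of H19. Peaks were not assigned to the gene or to the control region, since no mm9 annotation was used here. The peak present at all 3 stages was the second from the low end. Its HSC peak spanned 149762393 to 149763262 (870 bp), its CMP peak 149762260 to 149763398 (1139 bp) and its ERY peak 149762282 to 149763084 (803 bp). The 3 lists shared 692 bp of it, and its CMP peak was wider than its HSC peak on both sides.

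Of the 4 HSC peaks on the Igf2 side of this shared peak, 3 had a CMP peak and none had an ERY peak. Over the whole HSC list, 57.1% of peaks had a CMP peak and 30.9% an ERY peak. This side was marked off after its values were seen, and no difference from the rest of the window was tested. The nearest of the 4 peaks measured 900 bp in CMP and 1178 bp in HSC, where it lay at 149763405 to 149764582. The next measured 879 bp in CMP, wholly inside an HSC peak of 1007 bp at 149765620 to 149766626. The following HSC peak, at 149767274 to 149768196 (923 bp), had no peak in CMP or ERY. The peak farthest toward Igf2 measured 830 bp in CMP and 703 bp in HSC, where it lay at 149785641 to 149786343, 17444 bp from its neighbour.

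The lowest HSC peak of the window, at 149761408 to 149762218 (811 bp), was the other peak sharing no base with a CMP or ERY peak. It ended just below the shared peak, which began at 149762260 in CMP and 149762282 in ERY. Its absence from these lists thus rests on the 1 bp rule. The ERY peaks next to the shared H19 peak lay 90.9 kb below and 92.2 kb above it, and in HSC the outermost peaks of the window had neighbours at 24.1 and 30.0 kb. The autosomes as a whole held 11 ERY peaks and 33.8 HSC peaks per Mb. How usual gaps of these sizes are in each list was not tested. The ERY peak had a middling width in its list, ranking 12937 of 27839.

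The Meg3 window held the widest members. Dlk1 lies on its low side by the gene order on GRCm38, and Meg3 is read toward the higher coordinates. The lowest HSC peak, at 110764439 to 110767040, was separated from the next by 10900 bp. At 2602 bp it ranked 264 by width among the 85797 HSC peaks. The same place carried a CMP peak of 1934 bp at 110765292 to 110767225, ranking 683 of 50638, and an ERY peak of 1725 bp at 110765302 to 110767026, ranking 463 of 27839. The CMP and ERY peaks began within 10 bp of each other, 853 and 863 bp inside the HSC peak, and the ERY peak ended 14 bp before the HSC peak. All 1725 bp of the ERY peak lay under peaks of the other lists.

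The next part of the Meg3 window had 3 closely spaced HSC peaks. Of these, 1 had a CMP counterpart (57.1% of all HSC peaks do) and none an ERY counterpart (30.9% do). The 3 peaks were 1489 bp (110777941 to 110779429), 1080 bp (110779431 to 110780510) and 657 bp (110780805 to 110781461) wide, with gaps of 1 and 294 bp between them. The middle one had a CMP peak of 879 bp, which lay wholly inside it. The first of them is the widest HSC member sharing no base with a peak of either later list. It ended just below the CMP peak of the middle one, which began at 110779479.

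Beyond these, 2 neighbouring peaks were present at all 3 stages and were narrower at each later one. The peak at 110784048 to 110784917 was 870 bp wide in HSC, with a CMP peak of 759 bp and an ERY peak of 754 bp. The peak at 110787286 to 110788399 was 1114 bp wide in HSC, with a CMP peak of 1010 bp and an ERY peak of 906 bp. Their shared stretches were 690 and 871 bp long. After them came 6 HSC peaks between 110790684 and 110815115, of 480 to 998 bp. Of these, 1 had a CMP peak (810 bp in CMP, at 110801368 to 110802177, and 723 bp in HSC), and none had an ERY peak. Over the whole HSC list, 57.1% of peaks had a CMP peak and 30.9% an ERY peak. These groups of neighbouring Meg3 peaks, and the 3 closely spaced ones before them, were marked off after their values were seen. No difference between them and the rest of the window was tested.

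At the high end of the Meg3 window, the 4 HSC peaks from 110823925 onward each had a CMP peak, as did 57.1% of all HSC peaks. This stretch was marked off after its values were seen, and no difference from the rest of the window was tested. At the narrowest, a CMP peak of 957 bp enclosed an HSC peak of 435 bp at 110825469 to 110825903, so that its length in CMP was 220% of that in HSC. The peak at 110828108 to 110829333 was found at all stages, 1226 bp wide in HSC, with a CMP peak of 1073 bp and an ERY peak of 839 bp. The last peak crosses the edge of the window. It measured 2902 bp in CMP, of which 29 bp were inside the window, and 3211 bp in HSC (110829801 to 110833011), of which 200 bp were inside. The HSC peak ranked 100 by width in its list. An ERY peak of 796 bp at 110831708 to 110832503 lies under both but outside the window. It is not a member, and through it the CMP and HSC peaks count as kept in ERY.

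The Rasgrf1 window had the same solitary peak at each stage. The HSC peak measured 1319 bp (89774061 to 89775379), the CMP peak 1190 bp (89774019 to 89775208) and the ERY peak 962 bp (89774111 to 89775072). The ERY peak lay wholly within the other 2, and each successive list ended its peak closer to the low side, 171 bp earlier in CMP than in HSC and 136 bp earlier in ERY than in CMP. The closest neighbours were 59.3 kb below and 43.5 kb above in HSC, 179 and 73.2 kb in CMP, and 277 and 94.4 kb in ERY. Chromosome 9 as a whole held 35.5 HSC, 20.8 CMP and 11.7 ERY peaks per Mb. The width of the Rasgrf1 peak ranked 5590 of 85797 in HSC, 4923 of 50638 in CMP and 4829 of 27839 in ERY, within the wider part of each list.

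Set against the autosomes, a larger share of each window lay under peaks at every stage. Peaks covered 13.7% of the H19 window in HSC, 9.37% in CMP and 2.01% in ERY. For Meg3 the values were 18.2% for HSC, 10.2% for CMP and 5.28% for ERY. For Rasgrf1 they were 4.40% for HSC, 3.97% for CMP and 3.21% for ERY. Over all autosomes the covered share was 2.73% for HSC, 1.70% for CMP and 0.909% for ERY. All 9 window values were thus above the autosomal share of their list.

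The autosomes were also divided into consecutive tiles of the same length as each window. At least as many HSC peaks as in the H19 window were found in 4.29% of 61785 tiles, at least as many CMP peaks in 4.55%, and 1 or more ERY peaks in 28.7%. For the Meg3 window the shares were 0.670% of 30887 tiles in HSC, 1.62% in CMP and 5.61% in ERY. A tile with at least 1 peak, as in the Rasgrf1 window, made up 49.6% of 82384 tiles for HSC, 36.6% for CMP and 23.5% for ERY. Covered bases reached or passed the H19 value in 2.97% of tiles for HSC, 3.05% for CMP and 17.0% for ERY. The shares for Meg3 were 0.719% for HSC, 1.69% for CMP and 2.85% for ERY. Those for Rasgrf1 were 21.7% for HSC, 14.3% for CMP and 8.60% for ERY. The windows were placed on loci known to be methylated, so coverage above the autosomal share is no finding.

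**Figure D2:**
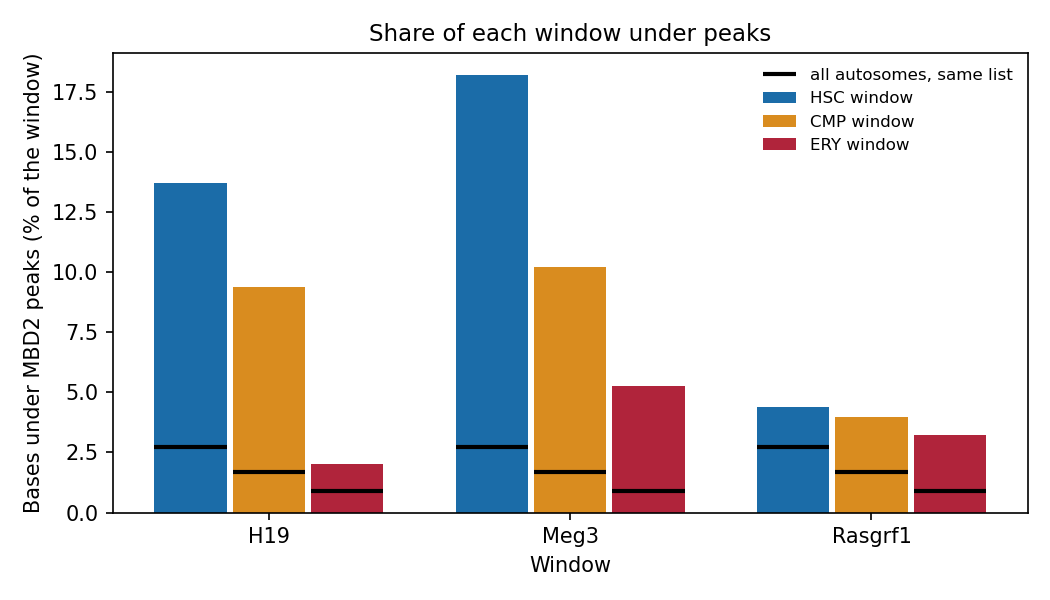
Bars give the bases under MBD2 peaks as a percentage of each window (x axis) in HSC, CMP and ERY, and black lines give the same percentage over all autosomes in the same list. The ERY bar of H19 stands at 2.01%, while the Rasgrf1 bars stay between 3.21 and 4.40%.

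Taken as a share of the HSC value, covered bases gave the same order of windows as the peak counts. In ERY, peaks covered 803 bp of the H19 window, against 5492 bp in HSC, which is 14.6% of the HSC length. The Meg3 window had 4224 bp under ERY peaks, against 14563 bp under HSC peaks (29.0%), and the Rasgrf1 window 962 bp, against 1319 bp (72.9%). For the whole lists, ERY covered 33.0% of the HSC length. In CMP the windows had 68.2% (H19), 56.2% (Meg3) and 90.2% (Rasgrf1) of their HSC length, against 62.6% for the whole lists. The H19 window was above the whole lists at this first step. At the second step ERY had 21.4% of the CMP length there, against 52.7% for the whole lists. The values for H19 and Rasgrf1 in ERY rest on 1 peak each.

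Over the 3 windows together, the share of peaks kept was close to that of all peaks. A peak is called kept when it shares at least 1 bp with a peak of the later list. From HSC, 14 of 23 members (60.9%, 95% exact binomial interval 38.5 to 80.3%) were kept in CMP, against 57.1% of all HSC peaks. Of the CMP members, 7 of 14 (50%, 23.0 to 77.0%) were kept in ERY, against 50.7% of all CMP peaks. Over both steps 7 of 23 HSC members (30.4%, 13.2 to 52.9%) were kept in ERY, against 30.9% of all HSC peaks. Each of these shares is near its background and is no result about imprinted loci. These intervals take each peak as an independent draw and leave out variation between animals, sorts and pulldowns.

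The flanks gave similar values. In the 500 kb on either side of the windows, CMP kept 58.1% of 129 HSC peaks (49.1 to 66.8%), and ERY kept 55.3% of 76 CMP peaks (43.4 to 66.7%) and 33.3% of the HSC peaks (25.3 to 42.2%). By locus, HSC peaks were kept in ERY in 5 of 26 cases (19.2%, 6.55 to 39.4%) in the flanks of H19, 24 of 65 (36.9%, 25.3 to 49.8%) in those of Meg3 and 14 of 38 (36.8%, 21.8 to 54.0%) in those of Rasgrf1. The interval for H19 includes the 32.9% of all HSC peaks of chromosome 7.

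**Figure D3:**
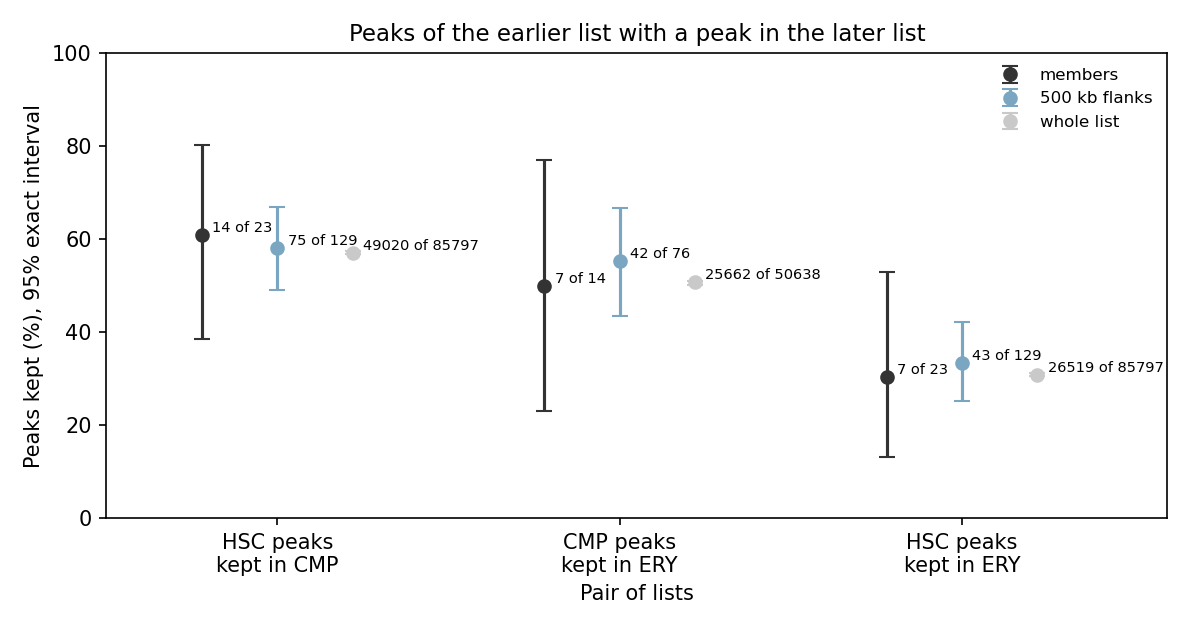
Points give the percentage of peaks of the earlier list that share at least 1 bp with a peak of the later list, for the members, for the 500 kb flanks of the windows and for the whole list, with 95% exact binomial intervals and the counts beside them. The members' intervals include the whole-list value for each pair (57.1, 50.7 and 30.9%).

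Every member of the CMP and ERY lists overlapped an HSC peak. This held for all 14 CMP members, against 96.5% of all CMP peaks, and all 6 ERY members overlapped both an HSC peak (95.3% of all ERY peaks) and a CMP peak (92.5%). When overlapping or touching peaks of the 3 lists were merged, the windows held 23 regions. Of these, 9 had a peak in HSC alone (40.7% of all merged regions are of this kind), 7 in HSC and CMP (26.4%) and 7 in all 3 lists (28.5%). The members' shares were 39.1, 30.4 and 30.4%, close to those of all regions. The 9 regions in HSC alone were 7 in the Meg3 window and 2 in the H19 window, and the 7 in all lists were 5 of Meg3, 1 of H19 and 1 of Rasgrf1.

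Among the 7 regions present at all stages, ERY peaks covered fewer bases than HSC peaks in all 7. Over all 24935 such regions this was so in 65.1%. The median ERY length was 72.9% of the HSC length in the 7 regions and 89.4% in all. The 7 values ran between 24.8% at the peak across the high edge of the Meg3 window and 92.3% at the shared H19 peak. In CMP the median was 90.2% of the HSC length, against 100% in all. The 7 regions were longer in HSC, with a median of 1226 bp against 886 bp in all, and the contrast was not matched for width. With 7 regions and 1 library per stage the contrast is a description of these lists.

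The HSC members kept in ERY were wider in the median than the others. These 7 had a median of 1226 bp (870 to 3211 bp), the 7 kept in CMP but not in ERY 863 bp (435 to 1178 bp), and the 9 in neither 704 bp (480 to 1489 bp). The groups overlapped, as the 1489 bp peak in neither list shows. Over all HSC peaks the same groups had medians of 864, 756 and 677 bp. The members were wider than usual in each list, with medians of 870 bp for HSC, 928 bp for CMP and 872 bp for ERY, against 748, 818 and 788 bp for the whole lists. At the members' width deciles, the whole lists gave 64.1% kept in CMP, 61.7% of CMP peaks kept in ERY and 37.7% of HSC peaks kept in ERY. The members' shares were all below these values, each of which lies inside the members' interval.

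**Figure D4:**
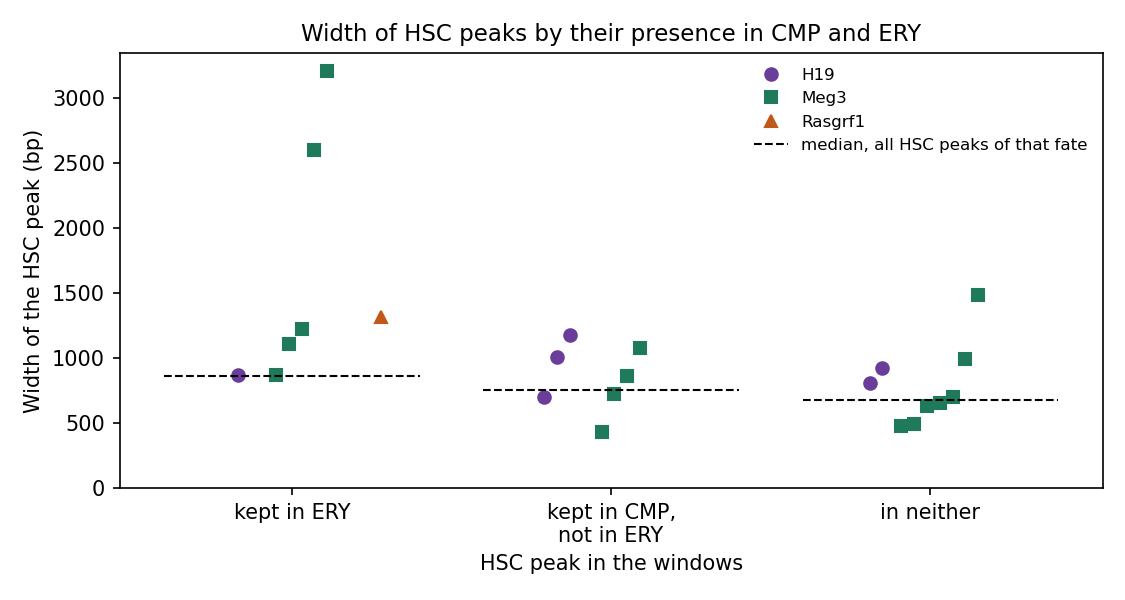
Each point is an HSC peak of the windows, with its width in bp on the y axis, placed by its presence in the later lists (kept in ERY, kept in CMP and not in ERY, in neither) and marked by locus. The dashed lines are the medians of all HSC peaks of each kind (864, 756 and 677 bp), and the 2 widest points, both of the Meg3 window, stand in the first group.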

How the data were processed

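Per the labels' protocols, single-end reads of 36 bp with a unique place in the genome defined the bound DNA. Per the submitters' processing notes, positions are on mm9. For each enriched library the authors deposited a list of peaks which, per the file headers, came out of a table browser. Each list gives chromosome, start and end, with no height, score or p-value. The labels and headers name no aligner, peak caller, threshold or control.

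Coordinates are printed 1-based. All peaks sharing at least 1 bp with a window are described, so no further rule chose which to name. The windows, and the choice of what to count, were set with earlier results of these data known. Bases outside a window were left out of covered lengths, but whole peaks were used for widths and overlaps. Intervals are Clopper-Pearson. Tiles ran over the 19 autosomes up to the last peak. The gene table belongs to GRCm38, so only the order of genes was taken from it. The overlap functions were tested on simulated data and gave the same counts as bedtools 2.31.1 for the 1 bp rule and for merging. The scripts ran under Python 3.11.15 with scipy 1.17.1, numpy 2.4.6, pandas 2.3.3 and matplotlib 3.10.9.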

Additional observations from a re-analysis of the deposited data

How the results depend on the processing

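Of 81 values recomputed under 11 alternatives, 66 stayed within 1.5 times the reported count or inside the interval of the reported share. Using the wider 50% of each list left 15 HSC members and 3 regions in HSC and CMP, by construction, since the cut removes peaks. Counting 1 kb bins in place of merged regions gave 15 bins with HSC only, 12 with HSC and CMP and 12 with all 3, because 1 region spans several bins. Leaving out each window in turn gave 7 to 22 members in HSC, 5 to 13 in CMP and 2 to 5 in ERY. The covered lengths were then 6811 to 20055 bp in HSC, 4938 to 11926 bp in CMP and 1765 to 5186 bp in ERY. The regions seen in HSC only numbered 2 to 9, those shared by HSC and CMP 3 to 7, and those of all 3 lists 2 to 6. Without the Meg3 window the totals were lowest, since it holds most members. The kept shares stayed inside their intervals throughout. They ran between 56.5 and 73.9% for HSC to CMP, 40.0 and 60.0% for CMP to ERY, and 26.1 and 40.0% for HSC to ERY. Requiring 50% of the earlier peak to be covered removed the peak across the edge of the Meg3 window from those kept in ERY (6 of 23). Allowing a gap of 500 bp raised the count to 9 of 23. The added peaks were the HSC peaks of the H19 window at 149761408 to 149762218 and 149763405 to 149764582. They lie on either side of its ERY peak, so the H19 count depends on the overlap rule. The 30.9% of all HSC peaks kept in ERY is for the 1 bp rule, and no whole-list share under the other rules is given here. No paired analysis was possible because each cell type has 1 library. The unknown read depth limits every statement on absent peaks, and how far it sets the lower number of ERY peaks was not tested.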
